A study of Xenopus tropicalis with 12 samples.

Results

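Signals of 10 probes of a frog array were examined, out of the 29168 probes tested and the 32899 distinct probes on each array. They stand for 10 of the 5202 genes that a tested probe matched. 9 of them match genes of 1 run of neighbouring genes that holds the cytochrome P450 genes cyp2c19, cyp2f1 and cyp2a13l. The other 6 genes of this set of 9 (LOC100490015, LOC100494424, LOC100491441, LOC100495517, LOC100493928 and LOC100491603) carry only placeholder names, so no role is given for them. The last probe is annotated to rbm48, a gene on another chromosome whose product in human is an RNA-binding protein of minor-intron splicing. The probes were picked by name, with their signals in exposed and in control embryos already known. The differences between each mixture and control therefore describe the choice and are given with no test, while the difference between the mixtures was tested.

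The RNA came from whole embryos of the clawed frog Xenopus tropicalis at 3 days post fertilization, with 1 sample per single-colour Agilent array. The groups were 4 arrays of embryos exposed to naphthenic acid mixture S2, 4 of embryos exposed to mixture S1 and 4 of control embryos (C). Naphthenic acids are cyclic and branched carboxylic acids that occur in crude oil, and S2 and S1 were separate batches of the same commercial product. No strain, genotype, dose, exposure length, vehicle or number of embryos per sample is given in the sources used here. Nothing says that the 4 samples of a group came from separate clutches, so p-values measure only the spread between these samples. In RNA of whole embryos, a change in the number of cells of a type and a change in RNA per cell cannot be told apart.

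Cytochromes P450 of family 2 are haem enzymes of the endoplasmic reticulum that add oxygen to drugs, other foreign chemicals and fatty acids, with electrons passed on by P450 oxidoreductase (por). In vertebrates they are most abundant in liver and in tissues that meet the outside, such as airway and gut. In mammals, several genes of the family are switched on by the nuclear receptors PXR (nr1i2) and CAR in response to foreign chemicals. Family 2 genes often stand side by side as copies of each other, with closely similar coding sequences. A probe to one of them can then bind RNA of another, and the array's designers gave probes names that hold either the word specific or the word xhyb, read here as able to cross-hybridise. Among the 10 probes, those of cyp2c19, LOC100493928 and LOC100491603 are named specific, and the other 7 are cross-hybridising. Over all tested probes, 15689 are named specific and 13479 cross-hybridising.

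The arrays lay on 3 slides of 4. Slide 1 held S2-1, S2-2, S1-1 and C-1, slide 2 held S2-3, S1-2, S1-3 and C-2, and slide 3 held S2-4, S1-4, C-3 and C-4. The 75th percentile of the scanner signal was 481 to 675 on S2 arrays, 261 to 537 on S1 arrays and 500 to 985 on control arrays. Levels below are log2 signal relative to that percentile of the same array, so a level of 0 is the array's own 75th percentile. All 10 probes were well above background on all 12 arrays, and no spot was saturated. The number of arrays, not a read depth, limits the precision. How bright a probe is also depends on the probe itself, so levels of different probes do not rank their transcripts. Of 8 liver marker genes tested, all 8 were well above background on every array, as were 5 of 6 pronephros markers and both lens markers. No gene of the intestine, muscle or neuron marker lists matched a tested probe.

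The probe of cyp2c19 is the one named P450 gene here with a probe called specific. Human CYP2C19 is a liver enzyme that clears drugs such as omeprazole. Its levels were -0.32, -0.32, -0.53 and -0.68 on the S2 arrays, -0.63, -0.83, -0.55 and -0.68 on the S1 arrays, and -3.13, -2.91, -2.70 and -3.02 on the control arrays. All 8 exposed arrays stood above all 4 control arrays, by a margin far wider than the spread inside any group. The means were -0.46 ± 0.18 in S2, -0.67 ± 0.12 in S1 and -2.94 ± 0.18 in control (SD, n = 4 each). This is 5.57-fold above control in S2 and 4.82-fold in S1, or 2.48 and 2.27 on the log2 scale. Before scaling, the signal was 342 to 466 in S2, 163 to 348 in S1 and 61.8 to 113 in control, so the exposed arrays were brighter in raw signal as well. Only the background correction that models the local backgrounds as measured moved these log2 differences by over 1.5 times, to 1.06 in S2 and 1.01 in S1.

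The probe with the largest difference among the 10 matches LOC100491441, a gene between cyp2c19 and LOC100491603 in the run. It read 4.49, 4.71, 4.48 and 3.75 on the S2 arrays, 4.38, 4.29, 4.28 and 3.52 on the S1 arrays and -1.50, -1.69, -1.83 and -1.74 on the control arrays. The exposed and control arrays lay more than 5 log2 units apart (-1.50 was the highest control value and 3.52 the lowest exposed one). The fold over control was 66.3 in S2 and 56.0 in S1, or 6.05 and 5.81 on the log2 scale. In scanner units the signal was 7403 to 15114 in S2, 2985 to 11185 in S1 and 150 to 348 in control. With the local backgrounds as measured in the correction, the log2 differences were 4.43 in S2 and 4.22 in S1.

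LOC100495517, the last gene of the run, gave the next largest difference. Its probe read 4.90, 4.91, 4.74 and 4.51 in S2, 4.76, 4.75, 4.66 and 4.22 in S1 and 1.63, 1.50, 1.10 and 1.49 in control. Signals were 10.1-fold above control in S2 and 8.98-fold in S1 (3.33 and 3.17 on the log2 scale), with no overlap between exposed and control arrays. For both LOC100491441 and LOC100495517, the lowest S2 array was S2-4 and the lowest S1 array was S1-4, both from slide 3. The difference from control of LOC100491441 within slide 3 was 5.54 in S2 and 5.30 in S1, against 6.10 and 5.88 within slide 1 and 6.18 and 5.98 within slide 2. After each group's mean was removed, these probes moved together over the 12 arrays (r = 0.87, a description over arrays that share slides and scaling). This was not particular to them. The probe of LOC100491603, which differed far less from control, was also lowest on S2-4 and S1-4 within S2 and S1. Its r was 0.90 with LOC100495517 and 0.70 with LOC100491441.

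**Figure D1:**
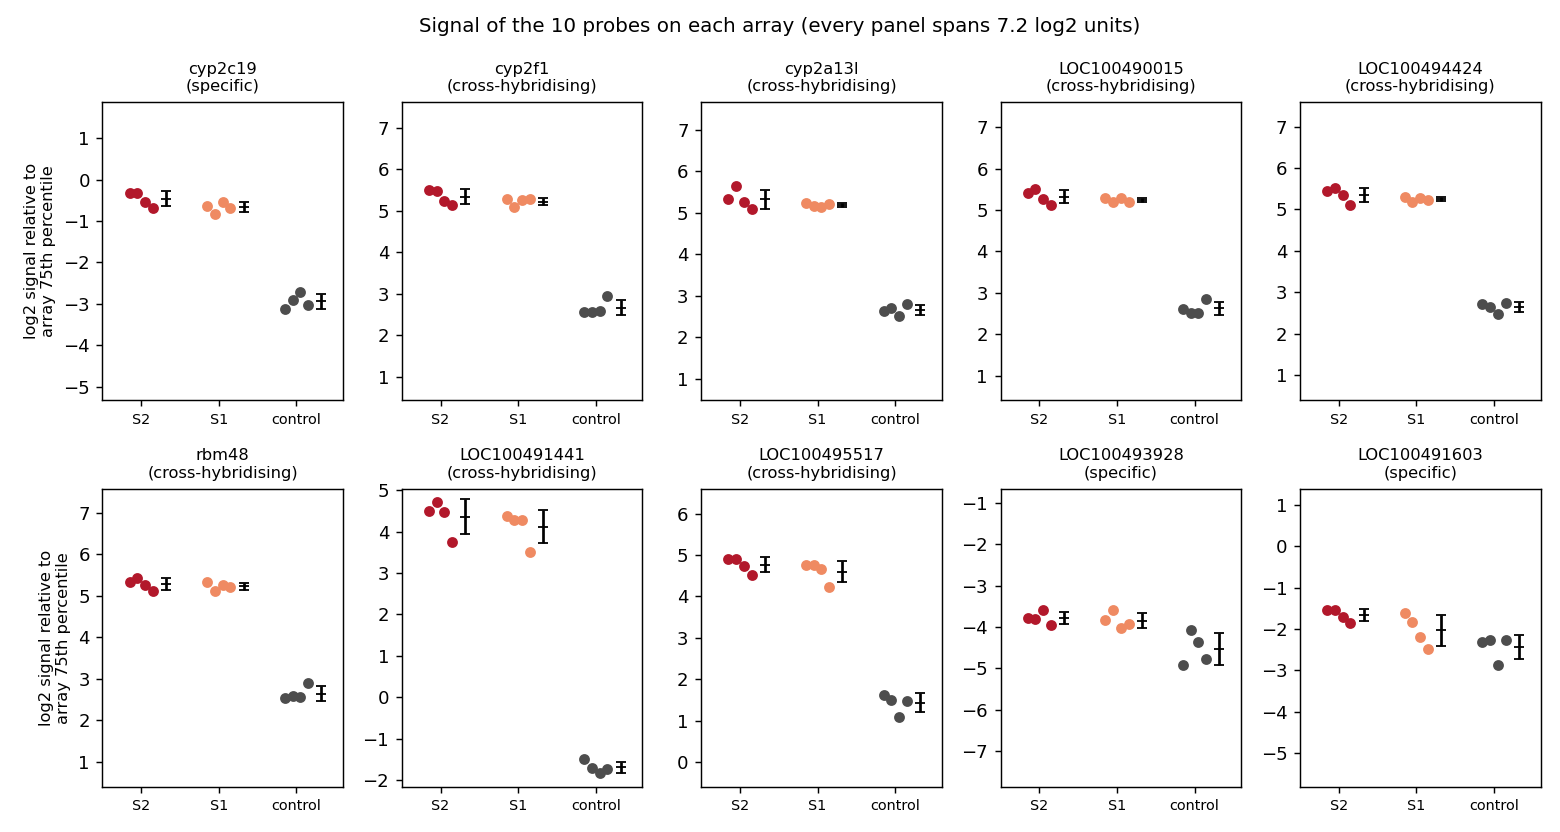
Log2 signal relative to the array's 75th percentile for each of the 10 probes, by group (S2, S1, control). Each point is 1 array and the bar beside it is the mean ± SD of 4 arrays. Every panel spans the same number of log2 units. LOC100491441 shows the widest gap (6.05 in S2 and 5.81 in S1), 7 probes differ by 2.27 to 3.33, and LOC100493928 and LOC100491603 differ by less than 0.8 in both mixtures.

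A set of 5 cross-hybridising probes read almost the same value on every array. They are annotated to cyp2f1, cyp2a13l, LOC100490015, LOC100494424 and rbm48, and they were put together after their values had been seen, so the set gets no test. Human CYP2F1 is an airway enzyme that activates naphthalene, and human CYP2A13 is an airway enzyme that acts on nitrosamines of tobacco smoke. The probe of cyp2f1 read 5.51, 5.48, 5.24 and 5.14 in S2, 5.29, 5.08, 5.26 and 5.28 in S1 and 2.56, 2.56, 2.59 and 2.95 in control. That of cyp2a13l read 5.33, 5.65, 5.25 and 5.10 in S2, 5.25, 5.17, 5.13 and 5.21 in S1 and 2.63, 2.69, 2.52 and 2.81 in control. For both genes the exposed arrays all lay above 5 and the control arrays all below 3. The cyp2f1 signal was 6.39-fold above control in S2 and 5.90-fold in S1, and the cyp2a13l signal 6.37-fold and 5.77-fold.

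LOC100490015 read 5.41, 5.50, 5.26 and 5.13 in S2, 5.28, 5.21, 5.28 and 5.20 in S1 and 2.62, 2.52, 2.52 and 2.84 in control. LOC100494424 read 5.43, 5.51, 5.34 and 5.11 in S2, 5.29, 5.19, 5.27 and 5.22 in S1 and 2.71, 2.63, 2.49 and 2.75 in control. The probes of these placeholder genes were grouped with those of cyp2f1 and cyp2a13l for this likeness. Whether the probes read separate RNAs was not tested. Folds of the signal over control were 6.49 in S2 and 6.14 in S1 for LOC100490015, and 6.51 and 6.05 for LOC100494424.

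The probe annotated to rbm48 read 5.33, 5.44, 5.27 and 5.12 in S2, 5.34, 5.11, 5.26 and 5.21 in S1 and 2.54, 2.57, 2.56 and 2.90 in control. Its means were 5.29 ± 0.13 in S2, 5.23 ± 0.09 in S1 and 2.64 ± 0.17 in control (SD, n = 4 each), 6.25-fold above control in S2 and 6.0-fold in S1. The level differed from those of the other 4 probes by up to 0.209 on any array, although rbm48 itself is no P450 gene and lies outside the run. No other probe on the array matched rbm48, so the gene has no independent reading here.

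The likeness of the 5 probes was measured as the root mean square (RMS) difference of their profiles over the 12 arrays, each profile centred on its own mean. The 10 pairs among the 5 probes gave 0.054 to 0.105 log2 units (median 0.079). The rbm48 probe stood 0.054 to 0.091 from the other 4. As a yardstick, pairs of spots that carry 1 and the same probe were compared in the same way, for the 581 probes with 2 spots and a mean level of at least 2. Those duplicate spots gave a median of 0.087, with 0.047 and 0.159 as the 5th and 95th percentiles. The 5 probes, which were grouped for their likeness, differed from each other by about as much as repeated spots of 1 probe do. This describes the choice and is no test of a shared target. On the same measure, 0.93% of all pairs among the 3103 probes with a mean level of at least 2 were within 0.105. The median of those pairs was 0.259. On a single array, the highest and lowest of the 5 lay 0.036 to 0.209 apart.

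The 5 were grouped by their values on every array, so their agreement inside groups also follows from that choice and is given as a description. With each group's mean removed, pairs of the 5 probes correlated at r = 0.71 to 0.93 over 12 arrays, and the other 35 pairs of the 10 probes at -0.36 to 0.90. The RMS difference inside groups was 0.049 to 0.104 for the 5, and 0.115 to 0.353 for the other pairs. Of all 4812753 pairs among the 3103 probes with a mean level of at least 2, 4.17% were within 0.104 of each other inside groups, with a median of 0.199. A small difference inside groups is thus found in other pairs of bright probes too. Over all 12 arrays with no group mean removed, the specific and dimmer probe of cyp2c19 stood 0.193 to 0.211 from the 5, and inside groups 0.148 to 0.164. Duplicate spots of probes of any level gave a median of 0.150 and a 95th percentile of 0.825 over the 12 arrays. The distances of cyp2c19 over the 12 arrays (0.193 to 0.211) lie between these values.

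**Figure D2:**
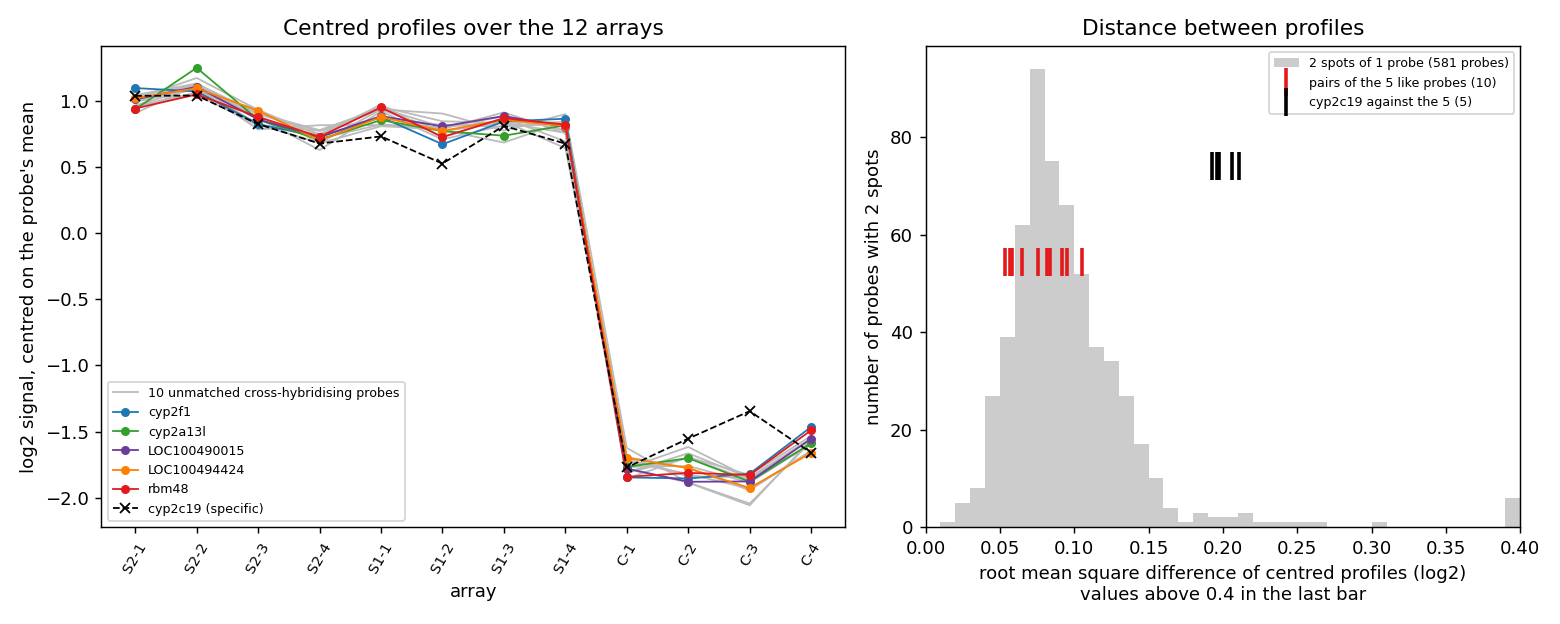
Left, log2 signal centred on each probe's mean, for the 12 arrays (S2, S1, then control) of the 5 like probes, of cyp2c19 and of 10 further probes with no matched gene. Right, RMS difference between centred profiles in log2 units, with bars for pairs of spots of 1 probe (581 probes), red marks for the 10 pairs of the 5 like probes (0.054 to 0.105) and black marks for cyp2c19 against each of the 5 (0.193 to 0.211).

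Outside the 10 probes, 10 more lay within 0.159 of the mean profile of the 5, the next one being at 0.163. All 10 are cross-hybridising and none matched a gene. Their means were 5.25 to 5.38 in S2, 5.13 to 5.29 in S1 and 2.51 to 2.77 in control, against 5.29 to 5.35, 5.19 to 5.24 and 2.63 to 2.67 for the 5. A search with the same limit was also made around single probes. Around the rbm48 probe it found 15, of which 11 were outside the 10 probes and 14 were cross-hybridising. It found 2 unmatched cross-hybridising probes beside LOC100491441 (at 0.070 and 0.084, the next at 0.639). Beside LOC100495517 it found 5 non-member probes (0.039 to 0.123, the next at 0.182). Both of these next probes are named specific and matched no gene. The one next to LOC100491441 differed from control by 6.66 in S2 and 6.67 in S1 on the log2 scale, more than LOC100491441 itself. The one next to LOC100495517 differed by 3.52 and 3.30. For cyp2c19 and LOC100493928 it found none, with the nearest probes at 0.164 and 0.211. The one nearest to cyp2c19 is a specific probe of LOC100487918, a gene outside the run. It differed from control by 2.47 in S2 and 2.37 in S1. The probes of cyp2c19 and LOC100493928 are dim, with mean levels of -1.36 and -4.06. The limit of 0.159 comes from probes with a mean level of at least 2. Finding none within it therefore does not show that no probe is like them. For the specific probe of LOC100491603, whose difference from control was small, it found 27, of which 7 are cross-hybridising, so close neighbours were not limited to cross-hybridising probes. Whether such probes bind 1 RNA or several was not tested, since no probe sequence was given in the files used here.

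The remaining specific probes, those of LOC100493928 and LOC100491603, differed far less from control. LOC100493928, the first gene of the run, read -3.79, -3.81, -3.59 and -3.94 in S2, -3.83, -3.59, -4.03 and -3.93 in S1 and -4.93, -4.08, -4.37 and -4.77 in control. Exposed and control arrays did not overlap, but the lowest S1 array and the highest control array stood next to each other at -4.03 and -4.08. The fold over control was 1.69 in S2 and 1.62 in S1 (0.75 and 0.69 on the log2 scale). Its scanner signal before scaling was 34.4 to 56.2 in S2, 17.1 to 39.7 in S1 and 18.3 to 50 in control, so the unscaled groups did overlap. After background correction with normexp, the S2 difference was 0.33 with the local backgrounds as measured and 0.43 with outlying ones replaced.

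LOC100491603 read -1.54, -1.55, -1.70 and -1.86 in S2, -1.62, -1.84, -2.19 and -2.48 in S1 and -2.31, -2.27, -2.88 and -2.27 in control. The S2 arrays lay above all control arrays, while S1-4 lay among the controls. The difference from control was 0.77 in S2 and 0.40 in S1 on the log2 scale, or 1.71-fold and 1.32-fold. Before scaling, the signal of LOC100491603 was 151 to 208 in S2, 46.8 to 175 in S1 and 75.9 to 198 in control. The unscaled groups thus overlapped. The scaled S1 difference was carried unevenly by the slides, with 0.69 within slide 1, 0.26 within slide 2 and 0.09 within slide 3. Without C-3, the lowest control array, the difference was 0.62 in S2 and 0.25 in S1, and without S1-1 it was 0.26 in S1. With array brightness as a covariate the S1 difference was 0.69, and with the local backgrounds as measured the S2 difference was 0.32.

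Over the 10 probes, the median difference from control was 2.67 in S2 and 2.57 in S1 on the log2 scale, where the medians over all tested probes were -0.04 and -0.02. Arrays did not overlap with control for 10 of 10 in S2 and 9 of 10 in S1, against 7.55% and 5.61% of all tested probes that were higher without overlap. The members were picked on these differences, so their counts describe the choice only. Both comparisons also share the 4 control arrays.

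Mixture S2 against mixture S1 is the comparison that the choice of probes did not use. None of the 10 probes differed between the mixtures by limma's test (0 of 10 at adjusted p under 0.05, and 0 of 10 at an unadjusted p under 0.05). Over all tested probes 0.00% passed, and 7.34% had an unadjusted p under 0.05. The estimates were all above 0, that is higher in S2, with 0.06 to 0.37 and a median of 0.13 on the log2 scale, where 44.8% of all tested probes were above 0 and their median was -0.02. The arrays of S2 and S1 overlapped for every one of the 10, where 4.67% of all tested probes had no overlap. As many of these probes track each other closely, their shared sign does not count 10 times.

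For cyp2c19 the difference was 0.21 ± 0.12 (SE, limma adjusted p = 0.724, 4 arrays a group), with a 95% interval of -0.06 to 0.47. For LOC100491441 it was 0.24 ± 0.22 (adjusted p = 0.822), with an interval of -0.24 to 0.73. The largest estimate was that of LOC100491603, 0.37 ± 0.19 (unadjusted p = 0.078, adjusted p = 0.704), with an interval of -0.05 to 0.79. The rbm48 probe gave the smallest, 0.06 ± 0.11 (adjusted p = 0.919). LOC100495517 stood at 0.17, LOC100493928 at 0.06, cyp2a13l at 0.14, cyp2f1 at 0.12, LOC100494424 at 0.11 and LOC100490015 at 0.08 (adjusted p = 0.794 to 0.95). Across the 10 probes the 95% intervals ran from -0.32 to 0.79, so a difference of up to 1.73-fold is inside the interval of at least 1 probe, and equal signals in both mixtures are not shown.

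The sign of the difference also varied by slide. Within slide 1 all 10 estimates were above 0, with 0.31 for cyp2c19 and 0.21 for cyp2f1. Within slide 3, cyp2f1 stood at -0.14, cyp2a13l at -0.11, LOC100494424 at -0.11, rbm48 at -0.09 and LOC100490015 at -0.07, with 0.00 for cyp2c19 and -0.01 for LOC100493928. The other 3 were above 0 within slide 3, with 0.24 for LOC100491441, 0.30 for LOC100495517 and 0.62 for LOC100491603, which stood at 0.08 within slide 1 and 0.31 within slide 2. Each slide holds only 1 or 2 arrays of a mixture, so these values have no error of their own.

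**Figure D3:**
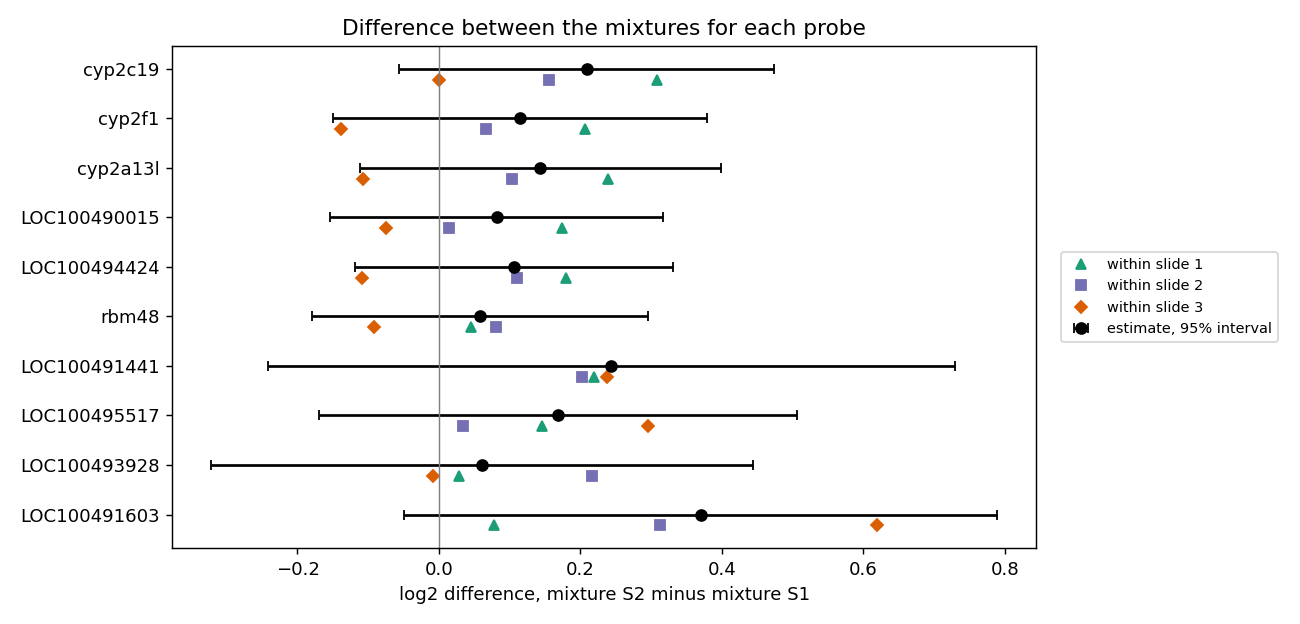
Log2 difference of mixture S2 minus mixture S1 for each of the 10 probes. Black points are estimates from 4 arrays per group with 95% intervals, and coloured marks are the differences within slides 1, 2 and 3. All 10 intervals include 0, and 5 of the 6 probes at the top, from cyp2f1 to rbm48, fall below 0 within slide 3.

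Along the chromosome, the run from LOC100493928 to LOC100495517 holds 29 genes in the order of the RefSeq table of the assembly UCB_Xtro_10.0. The 9 members take places 1, 2, 6, 9, 10, 14, 16, 21 and 29. Of the 20 other genes, 17 had no matched probe, among them the P450 genes cyp2e1, cyp2e1.2 and cyp2b6. The 3 that were tested lie toward the end of the run, and none passed in either mixture. Among all tested probes, 2.43% passed as higher and 2.63% as lower in S2, and 1.40% and 0.703% in S1. With so few genes, none passing is near these shares. The members were picked for their rise, so no contrast with these 3 genes is drawn. All 3 were read by cross-hybridising probes, so these values may not be those of the single genes. LOC100494741 stood at 0.14 in S2 and 0.20 in S1, LOC100495056 at -0.02 and 0.01, and LOC100491773 at -0.19 and 0.08 on the log2 scale. LOC100491603, one of the 9, lies between LOC100494741 and LOC100495056.

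Beyond its ends in gene order, no difference from control passed for the 5 genes tested, which is also near the shares over all tested probes. Of these 5, only tfap2d was read by a specific probe. The nearest tested gene before the run, LOC100494435, stood at 0.29 in S2 and 0.19 in S1 (limma adjusted p = 0.422 and 0.691). In the table its extent also covers LOC100493928, LOC100490015 and cyp2f1. Further overlaps in the table join cyp2a13l with LOC100494424 and cyp2c19 with cyp2e1.2. On the far side the nearest tested gene was crisp1.6, at -0.48 in S2 and -0.40 in S1 (adjusted p = 0.220 and 0.370). The crisp1.6 probe was dim, and was well above background on 3 of 4 S2 arrays, 1 of 4 S1 arrays and 4 of 4 control arrays. Genes of the crisp family encode secreted cysteine-rich proteins.

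**Figure D4:**
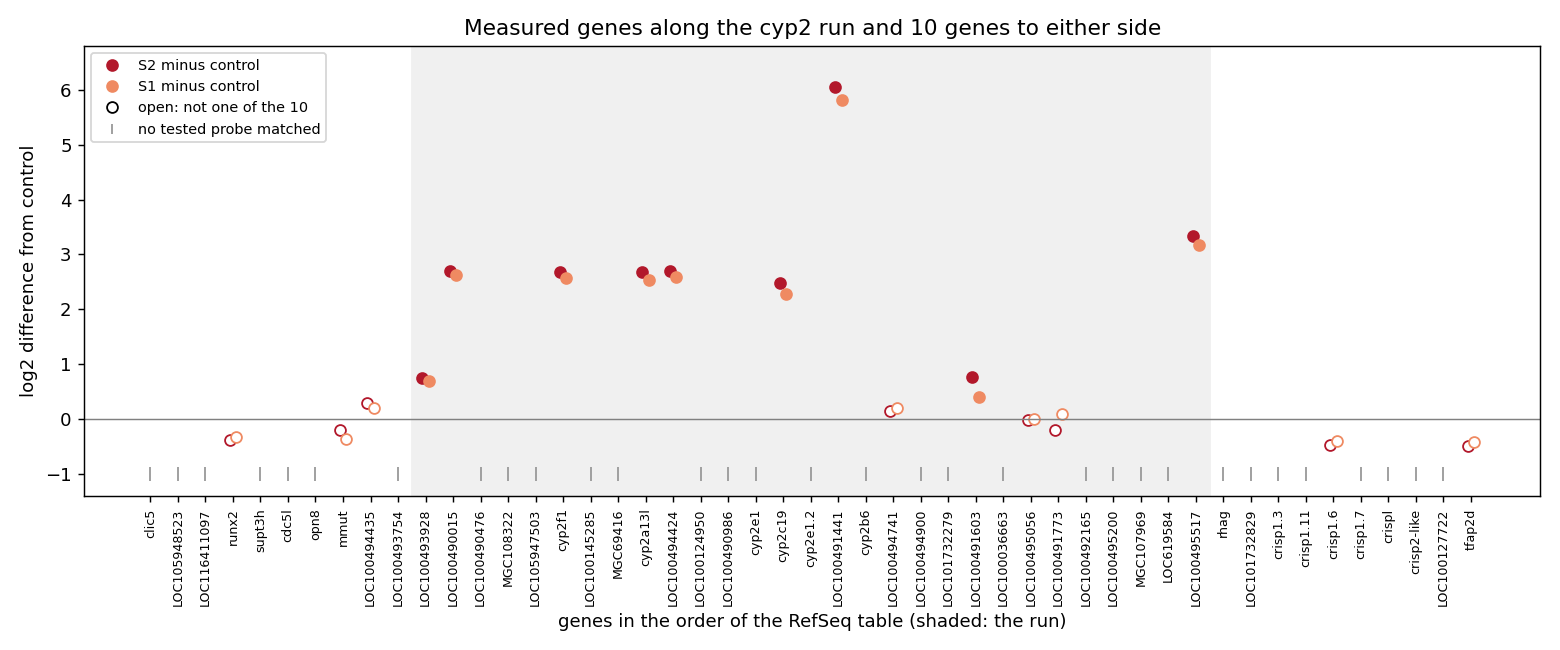
Log2 difference from control for genes in their order in the RefSeq table, with the run shaded and 10 genes to either side. Filled points are the 9 members, which were picked on these differences. Open points are other tested genes, and ticks mark genes with no tested probe. The 3 open genes inside the run lie between -0.19 and 0.20, while LOC100491441 reaches 6.05 in S2 and 5.81 in S1.

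Around rbm48, 8 neighbouring genes were tested. None passed in S1, and 1 passed in S2 as lower. That gene was lrrd1, which encodes a protein with leucine-rich repeats and a death domain, at -1.16 ± 0.29 in S2 (SE, limma adjusted p = 0.042) and -0.94 in S1 (adjusted p = 0.123). The call was lost when any 1 of 9 arrays was left out (all but S2-4, S1-2 and S1-4). It was also absent under 9 other settings. Among these, the filter for probes well above background on all arrays left lrrd1 out, so it was not tested there. With the local backgrounds as measured the value was 0.11. No neighbour of rbm48 thus passed as higher in exposed embryos, where 2.43% of all tested probes did so in S2 and 1.40% in S1. Lower in S2 were 2.63% of all tested probes.

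Most other genes of foreign-chemical handling that were tested did not pass, as is true of most probes on the array. Of 41 tested genes of the list (receptors, P450 enzymes and their partners, conjugating enzymes and transporters, members left out), 3 rose in S2 and 1 rose in S1, and none fell. Over all tested probes, 2.43% rose and 2.63% fell in S2, and 1.40% rose and 0.703% fell in S1. The median difference over the 41 genes was 0.12 in S2 and 0.07 in S1 on the log2 scale, against -0.04 and -0.02 over all tested probes. Higher without overlap were 7 of 41 in S2 and 4 of 41 in S1, against 7.55% and 5.61% of all tested probes. Between S2 and S1, 0 of 41 passed, and the median was 0.02.

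Among receptors, nr1h4, the bile acid receptor, rose in S2 by 0.49 ± 0.12 (SE, limma adjusted p = 0.035) and stood at 0.34 in S1 (adjusted p = 0.158). The pregnane X receptor gene nr1i2 stood at 0.24 in S2 and 0.37 in S1 (adjusted p = 0.188 and 0.078). It passed in S1 in 1 of 23 alternative settings, the one without C-1, and in S2 in 0 of 23. The aryl hydrocarbon receptor gene ahr, which in vertebrates senses dioxin-like compounds, stood at 0.13 in S2 and -0.08 in S1 (adjusted p = 0.612 and 0.815). Its classic target cyp1a1 matched no tested probe. In all, 1 of 8 receptors and partners rose in S2 and 0 of 8 in S1.

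The electron donor of microsomal P450 enzymes, por, rose in S2 by 0.46 ± 0.11 (limma adjusted p = 0.030) and stood at 0.31 in S1 (adjusted p = 0.158). Its call held in 14 of 23 alternative settings and that of nr1h4 in 11 of 23, and neither rise is therefore firm. Without S2-1, without S2-2 or without S2-3, only 1 gene of the list rose in S2, and without S1-4, without C-1 or without C-3, 2 rose in S1. P450 genes that carry only a placeholder name could not be put on the list. Of its 10 tested P450 genes of families 1 to 4, 0 passed in S2 or in S1. With array weights, cyp3a4.2, cyp4v2.1 and cyp2a6.10 passed in S2. Without S2-4, cyp4v2.1 passed in S2, and without S1-4, cyp3a4.2 passed in S1. The values nearest to the members' were those of cyp3a4.2, at 0.62 in S2 and 0.59 in S1, and cyp4v2.1, at 0.60 and 0.29. Those of 4 genes with cyp2a6 symbols lay between -0.44 and 0.30.

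Of 12 transporter genes, abcg2 rose in both mixtures. It encodes an efflux pump that carries foreign compounds out of cells. The rise was 1.46 ± 0.14 in S2 (SE, limma adjusted p = 0.00014) and 1.52 ± 0.14 in S1 (adjusted p = 0.000109), or 2.75-fold and 2.86-fold. The call held in 22 of 23 alternatives in each mixture, the exception being the correction with local backgrounds as measured. Among the other transporters, slc22a6 and slc51b passed in both mixtures with quantile normalization and with the authors' deposited table, but not in the main fit. None of the 7 conjugating enzymes and none of the 3 other oxidising or hydrolysing enzymes passed in the main fit. The conjugating enzyme gene gstz1 passed in S2 with the filter on all arrays, with a slide block and with array weights.

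A search for named genes whose signal over the 12 arrays was most like the mean of the 9 run members gave lamp3 (r = 0.971), abcg2 (0.970), cxcl11 (0.965), hsd17b2 (0.964), wdr53 (0.955) and prim1 (0.954). These coefficients describe 12 arrays that fall into exposed and control ones, and they have no test. With each group's mean removed they were 0.35 to 0.70, so most of the likeness is the step between exposed and control arrays. lamp3, which encodes a lysosomal membrane protein, averaged 2.18 in S2, 2.11 in S1 and 1.20 in control. cxcl11, a chemokine gene, averaged 0.06 in S2, 0.04 in S1 and -2.97 in control. hsd17b2, whose product inactivates sex steroids, averaged -0.17 in S2, -0.32 in S1 and -1.06 in control, and prim1, a subunit of DNA primase read by a cross-hybridising probe, averaged 2.22, 2.19 and 1.36. Besides these 6 genes, 60 other probes outside the 10 ranked above prim1, of which 57 had no matched gene and the other 3 only a placeholder name. The rbm48 probe itself reached r = 0.996.

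Markers of several cell types also differed from control in the same samples, in both directions. The mean level of the 8 liver markers was 1.10 to 1.17 in S2, 0.99 to 1.09 in S1 and 0.74 to 1.01 in control. Of these, 3 rose in S2 (apob by 0.73, kng1 by 0.86 and plg by 0.82) and 2 rose in S1 (kng1 by 0.78 and plg by 0.65), where 2.43% and 1.40% of all tested probes rose. The other 5 did not pass in either mixture, among them alb at -0.25 in S2 and 0.06 in S1, fga at -0.19 and -0.26 and fgg at 0.03 and -0.31. The mean level of 6 pronephros markers was -0.86 to -0.74 in S2, -1.01 to -0.72 in S1 and -1.21 to -0.94 in control, with 2 risen in S2 (lrp2 and amn) and 1 in S1 (amn), while pax8 stood at -0.21 in S2 and -0.30 in S1. Of the 6, slc22a6 is also in the transporter list. The median difference over the liver list was 0.15 in S2 and 0.09 in S1, and that over the pronephros list 0.38 and 0.29. For other cell types, 1 of 5 listed epidermis genes and 1 of 6 listed macrophage and neutrophil genes were tested. Of the lens list 2 of 6 were tested and of the erythrocyte list 1 of 6, so these values rest on 1 or 2 genes each. The keratin gene krt78.1 of epidermis fell by 2.46 in S2 and by 1.85 in S1. The neutrophil gene mpo rose by 0.58 in S2 (limma adjusted p = 0.0498) and stood at 0.56 in S1 (adjusted p = 0.081). The lens genes bfsp1 and bfsp2 stood at -1.57 and -1.45 in S2 and at -1.74 and -1.51 in S1 and did not pass, nor did slc4a1 of erythrocytes, at -0.04 in both. Their part in the signals of the 10 probes was not tested.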

How the data were processed

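Single-colour arrays of 12 whole-embryo RNA samples were used, 4 per group. Per the file headers, spots were quantified by Agilent Feature Extraction 11.0.1.1, whose deposited processed signal is a linear intensity, and the array was designed on build JGI 4.1. A second deposited table, the authors' log2 values, had a median of 6.80 in each column and ran in the direction of the scanner signal. No source used here gives the tool behind it, and it served as an alternative.

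After log2, each array's 75th percentile of non-control spots was subtracted. Over all arrays, 295 non-control spots were marked as outliers. A marked spot was dropped only where the same probe had an unmarked spot on that array, and was kept otherwise. Repeated spots of a probe were then averaged. The 29168 probes that were well above background on 4 or more arrays entered 1 limma 3.58.1 fit (R 4.3.3) over the 12 arrays, with no covariate. P-values were adjusted by Benjamini-Hochberg over all of them, at a threshold of 0.05. The fit was tested on simulated data. Figures were drawn with matplotlib 3.10.9.

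Transcript accessions gave names through a RefSeq table of UCB_Xtro_10.0. This table served for names, chromosomes, gene order and overlaps of genes, but not to place probes, as its build is not the array's. A symbol was found for 4594 tested probes, a placeholder for 861 and nothing for 23713 (81.3%).

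The members and the lists were chosen with earlier results of these data known. Named were all members, list genes that passed plus nr1i2, ahr, por and cyp1a1, passing neighbours and the nearest tested one on either side, and the 6 symbols most like the run by correlation. The 10 unmatched probes, the examples among P450 genes, and the marker genes were named after their values were seen. A result that this rule takes is not reported here. For a gene with several probes, the brightest stood for it. The normexp alternatives used median rather than mean spot signals, which were the ones in the files.

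The main fit did not pair samples by replicate number and had no slide term. Between groups, deviations from group means of same-numbered samples correlated at -0.03 to 0.36 (median 0.14). Samples of different numbers correlated at -0.44 to 0.45 (median -0.05). For samples on the same slide the range was -0.01 to 0.45 (median 0.16), and across slides -0.44 to 0.20 (median -0.07). A slide block and a replicate block were among the alternatives.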

Additional observations from a re-analysis of the deposited data

Results flagged for a closer look

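In 30 groups of 4 arrays of the 10 probes, 5 had 1 array far from the other 3, and of 60 groups looked at, other named genes included, 6 had one. The gap to the nearest array took most of the group's range (Dixon's test at the 95% level), which chance gives in about 1 group in 20. Probes that track each other do not count separately.

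C-4 was high for cyp2f1, at 2.95 against 2.56 to 2.59 on the other control arrays, and for the rbm48 probe, at 2.90 against 2.54 to 2.57. S1-2 was low for cyp2f1, at 5.08 against 5.26 to 5.29 on the other S1 arrays. S1-4 was low for LOC100491441, at 3.52 against 4.28 to 4.38, and without it the S1 difference from control was 6.01. C-3 was low for LOC100491603, at -2.88 against -2.31 to -2.27. S1-1 was high for hsd17b2, at -0.12 against -0.41 to -0.37 on the other S1 arrays.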

How the results depend on the processing

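Of 23 alternatives (11 settings and 12 arrays left out in turn), 0 members passed between S2 and S1 under any, and the median S2 minus S1 stayed above 0 in each. The median over members of S1 minus control was 2.38 with normexp on local backgrounds as measured and 2.41 with array brightness as a covariate, against 2.57. LOC100493928 turned in S2 minus S1, to -0.37 and -0.18 under normexp (backgrounds as measured, and replaced), -0.0049 with brightness and -0.0031 to 0.15 with single arrays left out, among them -0.000132 without S1-3. LOC100491603 turned to -0.071 and lrrd1 in S2 to 0.11 with backgrounds as measured. The xenobiotic genes that rose in S1 (1) were 0 with backgrounds as measured, 3 with quantile normalization, 3 with the authors' deposited table, 2 with a slide block and 2 with array weights, and 1 to 2 with single arrays left out. Those that rose in S2 (3) were 0, 5 and 5 under the same first 3 settings, 5 among probes well above background on all arrays, 9 with array weights and 1 to 4 with single arrays left out. The neighbouring genes that fell in S2 (1) were 0 under both normexp forms, quantile normalization, the authors' deposited table, no filter, the filter on all arrays, the slide block, the replicate block and brightness, 2 with array weights and 0 to 2 with single arrays left out. The filter on all arrays left lrrd1 out, so it was not tested there. The cause of these changes was not tested. Under the replicate block, nr1h4 and por also lost their calls in S2 and slc51b gained one (2 list genes rose in S2 and 1 in S1), and 0 members passed between S2 and S1. With local backgrounds as measured, the difference from control was 1.06 in S2 and 1.01 in S1 for cyp2c19, against 2.48 and 2.27, and 0.33 and 0.32 in S2 for LOC100493928 and LOC100491603, against 0.75 and 0.77.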
